A study of Homo sapiens with 4 samples.

Results

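The 10 genes described here, LGR5, ASCL2, AXIN2, RNF43, ZNRF3, EPHB2, NKD1, TCF7, LEF1 and BCL9, are targets or partners of Wnt and β-catenin signalling, and several of them mark the stem cells at the base of the intestinal crypt. They were taken by symbol from a table of 61544 genes, and all 10 were found in it as 1 row each. The table holds raw read counts of RNA from HT29 and HCT116, both established from human colorectal cancers. Each line gave 1 control library and 1 library of cells kept for 24 h with 1 ug/mL lipopolysaccharide (LPS), a component of the outer membrane of Gram-negative bacteria. Both lines were grown in the same serum-containing medium, and each condition has 1 library with no repeat. The study asked how lines that differ in basal glucocorticoid receptor expression respond to LPS.

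Wnt ligands bind Frizzled and LRP receptors and thereby stop the destruction complex of APC, AXIN and GSK3 from degrading β-catenin, which then enters the nucleus and switches on genes through TCF and LEF factors. In the intestine this pathway keeps crypt stem cells dividing, and many of its targets, AXIN2, RNF43, ZNRF3 and NKD1 among them, feed back to restrain it. Most colorectal cancers have the pathway switched on by mutation. HT29 carries truncated APC, and HCT116 carries a stabilising mutation of β-catenin itself, so neither line is a model of the intact pathway.

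The counts per library summed to 19105058 to 21268959, of which 3.75% to 7.16% were mitochondrial. The epithelial markers EPCAM, KRT8, KRT18, KRT19 and CDH1 had at least 1676 counts in every library, while PTPRC, the pan-leukocyte marker, had 0, 2, 0 and 0 counts in the HT29 control, HT29 LPS, HCT116 control and HCT116 LPS libraries. The colon factor CDX1 had 3 and 17 counts in HT29 and was at 0 in both HCT116 libraries. CDX2 had 18 and 39 counts in HT29 against 474 and 572 in HCT116. The 8 leukocyte markers summed to 52 to 159 counts a library, and CD14 gave 140 and 137 of those in the HT29 control and LPS libraries. The 9 fibroblast and endothelial markers summed to 140 and 115 counts in HT29 and to 2409 and 2144 in HCT116, most of them from COL1A1, with COL1A2, DCN and CDH5 at 0 throughout. Summed markers of differentiated cells differed between the lines, though not every marker went the way of its sum. The 10 goblet cell markers summed to 6616 and 7435 counts in HT29, where AGR2 led, and to 426 and 319 in HCT116. FCGBP went the other way, with 89 and 111 counts in HT29 against 408 and 293 in HCT116. The 11 enteroendocrine, tuft and Paneth cell markers summed to 18819 and 21081 in HT29, nearly all from LYZ, and to 27 and 47 in HCT116. The 15 enterocyte markers summed to 2941 and 3283 in HT29, mainly from VIL1, and to 315 and 245 in HCT116. Most of the HCT116 sum came from CA2, which had 278 and 230 counts in HT29 against 291 and 237 in HCT116. KRT20, SI, ALPI and APOA4 were at 0 in every library. The part of these markers' cell states in the line differences was not tested.

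The lines differed in all 9 members with enough counts to test, and in both directions. LGR5 and ASCL2, both markers of crypt stem cells, were present in HT29 and nearly absent from HCT116. RNF43, ZNRF3, TCF7 and AXIN2 were also higher in HT29, by 1.55-fold to 3.61-fold, while NKD1, EPHB2 and BCL9 were higher in HCT116. LEF1 was at 0 to 2 counts everywhere. Further intestinal stem genes, given below, did not all share the direction of LGR5 and ASCL2. The lines were compared with edgeR's quasi-likelihood test over 14516 genes whose mean was 1 CPM or more (CPM, the count scaled to a library of 1000000 counts), with LPS as a block, in which the control and the LPS library of a line stand in for replicates. It has 1 residual degree of freedom, and its p-values measure the spread between these 4 libraries and not between repeat cultures. At an adjusted p under 0.05 it called 6 members as higher in HT29, against 38.0% of all genes, and 3 as higher in HCT116, against 38.6%. Since 76.6% of all genes were called in either direction, a call by itself says little about these genes.

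**Figure D1:**
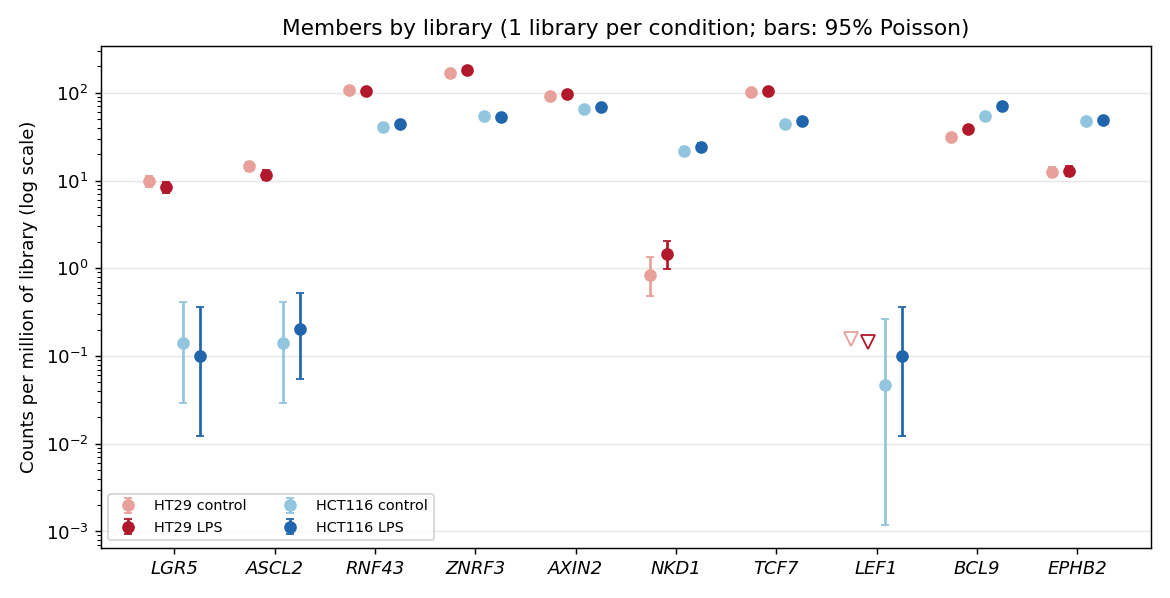
CPM of each member (log axis) in the 4 libraries, HT29 in red and HCT116 in blue, with LPS in the darker shade. Bars are 95% Poisson intervals of the single library, and open triangles mark the 3-count limit where LEF1 had 0 counts. LGR5 and ASCL2 lie between 8.35 and 14.6 CPM in HT29 and at 0.202 CPM or less in HCT116.

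LGR5, a receptor for R-spondins that marks crypt base stem cells, lies at chr12:71439798-71586310 on the plus strand (hg38, GENCODE 44). Its counts were 187 (control) and 174 (LPS) for HT29 and 3 (control) and 2 (LPS) for HCT116. The HT29 libraries were far above the HCT116 libraries in both conditions. The log2 ratio of HT29 to HCT116, computed on TMM-scaled CPM after adding a prior count of 2, was 5.50 between the control libraries (95% counting interval 4.72 to 8.58) and 5.50 between the LPS libraries (4.63 to 9.56). Counting intervals were computed by the exact Clopper-Pearson method from the raw counts and reflect sampling of reads alone. For genes with so few counts in a line, the size of a ratio or fitted change also depends on the prior count. In the test over the 4 libraries its log2 fold change was 6.31 with a standard error of 0.43 (adjusted p = 4.5e-11 in edgeR). In bulk RNA, fewer cells that express a gene and less of it per cell cannot be told apart. TSPAN8 on the opposite strand covers 495 of the 5223 exon bases of LGR5 with its gene body, though no exon of it does, and had 6187 and 6136 counts in HT29 against 2 and 0 in HCT116. Whether counting used strand is not stated, and the part of TSPAN8 reads in the LGR5 counts was not tested.

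ASCL2, the transcription factor that holds the crypt stem cell state, lies at chr11:2268498-2270588 on the minus strand and overlaps no other annotated gene. It had 279 and 243 counts in the HT29 control and LPS libraries and 3 and 4 in those of HCT116. The pattern across the libraries was that of LGR5. Its log2 ratio of HT29 to HCT116 was 6.07 between control libraries (counting interval 5.30 to 9.15) and 5.40 between LPS libraries (4.61 to 7.87), and its log2 fold change over the 4 libraries was 6.37 with a standard error of 0.36 (adjusted p = 2.3e-12 from edgeR). LGR5 and ASCL2 passed the filter on low counts only through HT29, so a gene of this kind had to differ between the lines to be tested at all. Of the 7 members measured in both lines, 4 were called as higher in HT29 and 3 in HCT116, beside 4816 and 4076 of all 12085 such genes.

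RNF43 and ZNRF3 are membrane ubiquitin ligases that remove Frizzled receptors from the cell surface, and R-spondins bound to LGR receptors clear them. RNF43 (chr17:58353676-58417595, minus strand) had 2041 and 2178 counts in the HT29 control and LPS libraries and 862 and 864 in those of HCT116. ZNRF3 (chr22:28883572-29057488, plus strand) had 3183 and 3800 counts in HT29 against 1142 and 1062 in HCT116. For both ligases each HT29 library lay above each HCT116 library. RNF43 was 2.79-fold higher in HT29 (log2 fold change 1.48 with standard error 0.08, edgeR adjusted p = 5.7e-13). ZNRF3 was 3.61-fold higher (log2 fold change 1.85 with standard error 0.07, edgeR adjusted p = 3.6e-15). On the scale of counts per base of exon, ZNRF3 exceeded RNF43 in every library, by 1.41-fold (counting interval 1.34 to 1.49) and 1.58-fold (1.5 to 1.67) in the control and LPS libraries of HT29, and by 1.2-fold (1.1 to 1.31) and 1.11-fold (1.02 to 1.22) in those of HCT116. The antisense gene TSPOAP1-AS1 shares 345 exon bases with RNF43 and had 196, 279, 84 and 130 counts. An unnamed gene on the same strand, ENSG00000285897, shares 4326 exon bases with RNF43 and had 8, 13, 2 and 16 counts. How reads of the shared bases were assigned is not stated, so the level of RNF43 per base is uncertain. The ratios of ZNRF3 to RNF43 are uncertain with it, beyond their counting intervals.

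AXIN2, a scaffold of the destruction complex and the most general feedback target of the pathway, was one of the members that differed least between the lines, with BCL9. AXIN2 (chr17:65528563-65561648, minus strand) had 1737 and 1997 counts in the HT29 control and LPS libraries and 1403 and 1354 in those of HCT116. The HT29 libraries lay above those of HCT116 by a small step. Its log2 ratio of HT29 to HCT116 was 0.63 (0.53 to 0.74) between control libraries and 0.62 (0.52 to 0.72) between LPS libraries, and its log2 fold change was 0.63 with a standard error of 0.07 (adjusted p = 1.2e-07 from edgeR). Its relative AXIN1, named here after its values were seen, is not a Wnt target and had 2703 and 2680 counts in HT29 against 995 and 917 in HCT116. Per base of exon, AXIN2 stood at 0.932 times AXIN1 (0.877 to 0.990) in the HT29 control and at 2.04 times AXIN1 (1.88 to 2.22) in the HCT116 control. An unnamed protein-coding gene on the same strand, ENSG00000266076, shares 1316 exon bases with AXIN2 and had 0, 0, 2 and 0 counts. How reads of these bases were assigned is not stated, so the level of AXIN2 per base is uncertain.

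NKD1, which binds Dishevelled and dampens the signal, went the other way. NKD1 (chr16:50548396-50649249, plus strand) had 16 and 30 counts in the HT29 control and LPS libraries and 466 and 484 in those of HCT116. It was 18.3-fold lower in HT29 over the 4 libraries (log2 fold change -4.19 with standard error 0.23, edgeR adjusted p = 1.3e-12). Among all genes tested, 9.17% were at least as far from 0 between the control libraries. NKD2, its relative, had 2 and 5 counts in HT29 against 93 and 72 in HCT116, and was also lower in HT29 (log2 fold change -4.32 with standard error 0.55, edgeR adjusted p = 6.0e-07). NKD2 passed the filter on low counts only through HCT116, so it had to differ between the lines to be tested. It is also present on an alternate contig of the reference, which makes its value uncertain. The transcripts of the members matched no other place in the reference at 98% identity over 50% of their length.

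EPHB2, a receptor for ephrin-B ligands that positions cells along the crypt, was 3.44-fold lower in HT29. EPHB2 (chr1:22710839-22921500, plus strand) had 238 and 267 counts in the HT29 control and LPS libraries and 1002 and 983 in those of HCT116. Both HCT116 libraries lay above both HT29 libraries (log2 fold change -1.78 with standard error 0.12, edgeR adjusted p = 3.1e-11). The 5 other tested receptors and ligands of its family, EPHB3, EPHB4, EPHB6, EFNB1 and EFNB2, were called as higher in HT29, as were 38.0% of all genes. EPHB1 and EFNB3 had too few counts to test, and EFNB3 had 0 counts in HT29 against 14 and 12 in HCT116. EPHB3, a Wnt target as well, had 1193 and 1224 counts in HT29 against 385 and 308 in HCT116 (standard error of the log2 fold change 0.11, adjusted p = 6.4e-13 from edgeR). EFNB1, a ligand of EPHB2, had 9052 and 10305 counts in HT29 against 995 and 1003 in HCT116 (log2 fold change 3.47 with standard error 0.07, edgeR adjusted p = 2.9e-19). EPHB6, uncertain because an alternate contig also holds it, had 2508 and 2513 counts in HT29 against 381 and 406 in HCT116. Per base of exon, EPHB3 stood at 12.7 times EPHB2 (11.1 to 14.5) in HT29 with LPS and at 0.866 times EPHB2 (0.759 to 0.985) in HCT116 with LPS.

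**Figure D2:**
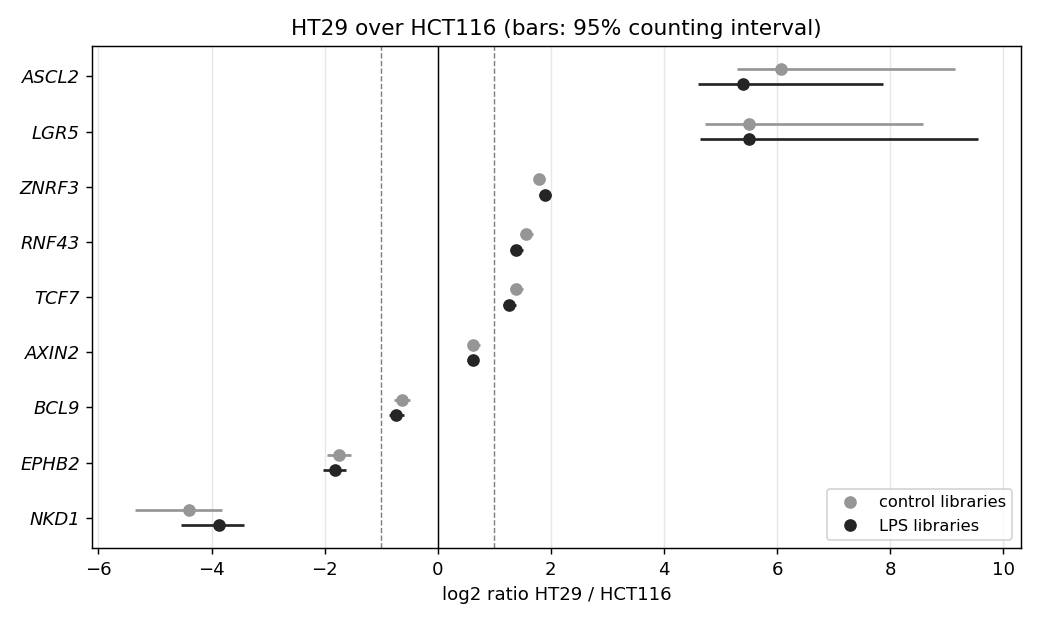
Log2 ratio of HT29 to HCT116 for the 9 members measured, between the control libraries (grey) and between the LPS libraries (black), with 1 library on each side. Bars are 95% counting intervals and dashed lines mark a log2 ratio of 1 in each direction. ASCL2 and LGR5 lie above 5, NKD1 lies at -4.39 and -3.87, and AXIN2 and BCL9 lie within the dashed lines.

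TCF7, LEF1, TCF7L1 and TCF7L2 are the DNA-binding partners of β-catenin, and the lines held them in different proportions. TCF7 (chr5:134114681-134151865, plus strand) had 1970 and 2207 counts in the HT29 control and LPS libraries and 941 and 957 in those of HCT116. It was 2.51-fold higher in HT29 (log2 fold change 1.33 with standard error 0.08, edgeR adjusted p = 2.1e-12). SKP1 on the opposite strand shares 210 of its 10093 exon bases, with 2551, 2243, 3020 and 2375 counts, so some TCF7 reads may be uncertain. TCF7L2, the main TCF factor of the intestinal epithelium, had 1210 and 1576 counts in HT29 against 4533 and 4829 in HCT116, and was lower in HT29 (log2 fold change -1.57 with standard error 0.07, edgeR adjusted p = 2.7e-14). TCF7L1, which acts largely as a repressor, had 8 and 7 counts in HT29 against 611 and 702 in HCT116 (log2 fold change -6.24 with standard error 0.25, edgeR adjusted p = 8.5e-15). Only through HCT116 did TCF7L1 pass the filter on low counts, so it had to differ to be tested. As levels per length, TCF7L2 stood at 0.920 times TCF7 (counting interval 0.856 to 0.989) in the HT29 control and at 1.07 times (1.00 to 1.14) in HT29 with LPS. In HCT116 it stood at 7.21 times TCF7 (6.72 to 7.75) in the control and 7.56 times (7.05 to 8.11) with LPS. TCF7L2 is named here as a relative of the members after its values were seen.

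LEF1 (chr4:108047545-108168956, minus strand), a TCF partner often induced in colorectal cancer, had 0 counts in both HT29 libraries, and 1 and 2 in the control and LPS libraries of HCT116. A count of 0 allows up to 0.157 CPM in the HT29 control and 0.144 CPM in HT29 with LPS, where 3 counts are taken as the limit. LEF1 was below the filter in both lines and was not tested, and no difference was detectable at this depth. Its antisense gene LEF1-AS1 had 0 counts in all 4 libraries.

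BCL9 bridges β-catenin to the PYGO proteins of the transcription complex. BCL9 (chr1:147541501-147626216, plus strand) had 596 and 812 counts in the HT29 control and LPS libraries and 1160 and 1403 in those of HCT116, and was 1.60-fold lower in HT29 (log2 fold change -0.68 with standard error 0.09, edgeR adjusted p = 1.0e-06). Its paralog BCL9L had 4638 and 6435 counts in HT29 against 6542 and 7070 in HCT116, and the difference between the lines, a log2 fold change of -0.12 with a standard error of 0.07, did not pass in edgeR (adjusted p = 0.095) but passed DESeq2 (adjusted p = 0.021). BCL9L exceeded BCL9 per base of exon by 4.57-fold (4.19 to 4.98) in the HT29 control and by 3.31-fold (3.11 to 3.53) in the HCT116 control. CTNNB1, the gene of β-catenin, had 4287 and 4323 counts in HT29 against 10306 and 8504 in HCT116 (log2 fold change -0.93 with standard error 0.07, edgeR adjusted p = 6.9e-11). BCL9L and CTNNB1 are likewise named after their values were seen.

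**Figure D3:**
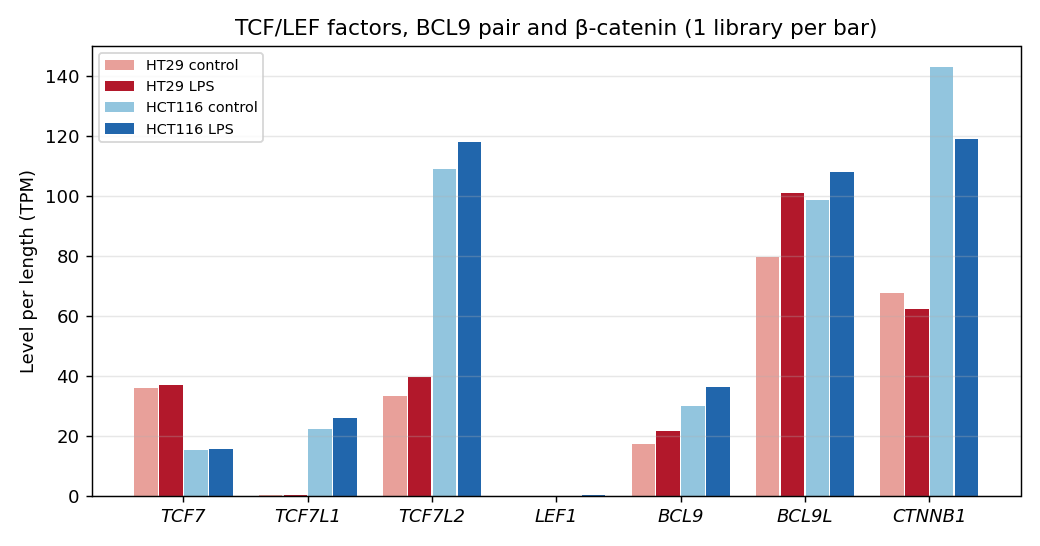
Levels per length, in TPM (counts per base of exon, scaled to sum to 1000000) computed from the counts and the gene lengths of the table, for the 4 TCF and LEF genes, BCL9, BCL9L and CTNNB1. Each bar is 1 library and has no error bar. TCF7 and TCF7L2 stand side by side in HT29, between 33.2 and 39.6 TPM, while in HCT116 TCF7L2 reaches 109 and 118 TPM beside 15.2 and 15.6 TPM of TCF7.

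The start regions of 4 members that differ in opposite directions are shown because promoter windows of these members were at hand and TCF factors bind DNA of known sequence. RNF43 and TCF7 were higher in HT29, and EPHB2 and BCL9 in HCT116. Each window covers 250 bases before to 50 after a RefSeq start (GRCh38.p14), and 5 of the 10 members matched by symbol, with 8 windows, of which the pair of EPHB2 overlap almost wholly. The TCF motif was searched on both strands as the letters CTTTG followed by AA, AT, TA or TT, and matches are in capitals.
TCF7 upstream start (chr5:134115363-134115662, plus strand): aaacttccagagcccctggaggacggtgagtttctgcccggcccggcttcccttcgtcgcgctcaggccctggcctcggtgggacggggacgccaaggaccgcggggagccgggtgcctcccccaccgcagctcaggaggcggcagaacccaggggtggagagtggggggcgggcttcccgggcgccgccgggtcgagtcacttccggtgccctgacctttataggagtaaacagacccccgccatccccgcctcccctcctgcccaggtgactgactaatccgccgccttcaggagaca
TCF7 downstream start (chr5:134123368-134123667, plus strand): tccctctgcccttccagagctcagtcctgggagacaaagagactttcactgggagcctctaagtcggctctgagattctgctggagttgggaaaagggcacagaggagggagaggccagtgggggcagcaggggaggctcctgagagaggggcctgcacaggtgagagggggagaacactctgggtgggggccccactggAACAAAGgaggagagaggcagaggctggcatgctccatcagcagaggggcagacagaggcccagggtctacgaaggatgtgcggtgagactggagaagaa
RNF43 (chr17:58417485-58417784, minus strand): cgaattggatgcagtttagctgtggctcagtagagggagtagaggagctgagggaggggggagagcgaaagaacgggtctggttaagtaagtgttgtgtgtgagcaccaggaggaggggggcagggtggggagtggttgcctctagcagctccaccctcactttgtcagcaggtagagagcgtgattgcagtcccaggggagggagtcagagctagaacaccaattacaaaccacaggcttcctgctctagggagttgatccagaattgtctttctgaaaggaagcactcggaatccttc
EPHB2 (chr1:22710588-22710887, plus strand): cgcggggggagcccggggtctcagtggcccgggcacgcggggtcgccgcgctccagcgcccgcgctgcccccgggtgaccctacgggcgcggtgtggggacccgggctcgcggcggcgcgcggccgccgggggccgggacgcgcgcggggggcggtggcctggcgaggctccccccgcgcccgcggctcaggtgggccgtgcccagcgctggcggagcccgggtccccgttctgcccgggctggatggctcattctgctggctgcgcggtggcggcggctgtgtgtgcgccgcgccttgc
BCL9 (chr1:147541251-147541550, plus strand): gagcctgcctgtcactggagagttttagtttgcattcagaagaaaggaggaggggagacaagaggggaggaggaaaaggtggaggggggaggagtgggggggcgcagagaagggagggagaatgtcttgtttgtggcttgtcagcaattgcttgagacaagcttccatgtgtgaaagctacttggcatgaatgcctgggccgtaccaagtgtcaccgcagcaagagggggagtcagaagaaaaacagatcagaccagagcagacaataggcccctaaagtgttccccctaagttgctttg
Of the 8 windows, 1 held a match, AACAAAG in the downstream window of TCF7, beginning 50 bases before the start. Among all 35116 windows of this length, 13.8% held a match. A match is not evidence of binding, and none was measured here.

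Compared as levels per length, the members took the same order in both libraries of a line but not in both lines. In HT29, ZNRF3 was highest with 84.3 TPM in the control and 92 with LPS, followed by AXIN2 (61.9 and 65.1), RNF43 (59.7 and 58.3), TCF7 (36.1 and 37.0), ASCL2 (34.8 and 27.7), BCL9 (17.4 and 21.7), LGR5 (6.63 and 5.64), EPHB2 (3.52 and 3.61) and NKD1 (0.171 and 0.293). AXIN2 and RNF43 lay close together in both libraries, and ASCL2 lay near TCF7 in the control. With 1 library per condition the order was not tested. In HCT116, AXIN2 was highest with 43.9 TPM in the control and 42.8 with LPS, followed by BCL9 (29.8 and 36.4), ZNRF3 (26.6 and 24.9), RNF43 (22.2 and 22.4), TCF7 (15.2 and 15.6), EPHB2 (13.0 and 12.9), NKD1 (4.37 and 4.58), ASCL2 (0.329 and 0.442) and LGR5 (0.0934 and 0.0629). AXIN2 was thus near the top in both lines, while ASCL2 and LGR5 stood near the end of the order in HCT116. The lengths are those of all exons of a gene merged, 17359 bases for NKD1, and transcripts in use may be shorter. RNF43 and AXIN2 also share exon bases with other genes on the same strand. Levels between genes, and their order, are therefore approximate.

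The LPS libraries served as a model of inflammation in these cells, and for the members measured the ratio of LPS to control was smaller than that between the lines. Within a line the log2 ratio of the LPS to the control library was taken for genes whose mean there was 1 CPM or more, and a ratio beyond 0.58 in size was counted. With 1 library per condition this has no replicate check and no p-value. In HT29, 1 of 9 measured members, NKD1, lay above 0.58 and none below -0.58, where 3.48% of 13201 genes lay above, 2.66% below and 6.14% in either direction. In HCT116, none of 7 measured members lay beyond 0.58 in either direction, where 3.57% of 14337 genes lay above, 2.36% below and 5.93% in either direction. The members' median log2 ratio was 0.03 in HT29 and 0.13 in HCT116, beside -0.01 and -0.0025 over all genes. Between the lines, 5 of 9 members lay above 1 on the log2 scale in the control libraries (16.8% of all genes) and 2 below -1 (23.4%), with 40.3% of all genes in either direction. In the LPS libraries it was again 5 above (16.9%) and 2 below (23.5%), with 40.4% of all genes in either direction.

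BCL9 had more counts with LPS than without it in both lines. Its counts went from 596 to 812 in HT29, a log2 ratio of 0.31 (counting interval 0.15 to 0.46), and from 1160 to 1403 in HCT116, a log2 ratio of 0.40 (0.29 to 0.52). BCL9 was the only 1 of the 7 members measured in both lines whose intervals lay above 0 in both, which 4.41% of 12085 genes did. No member's intervals lay below 0 in both, which 6.34% of genes did. Intervals narrow with the count, and these shares were not matched for it. LPS was tested over both lines by quasi-likelihood in edgeR, blocked on the line, again with 1 residual degree of freedom. BCL9 had a log2 fold change of 0.36 with a standard error of 0.09 there, unadjusted p = 0.00085 and adjusted p = 0.15. It passed with a minimum of 5 CPM (adjusted p = 0.017 from edgeR) and by DESeq2 (adjusted p = 0.042), so the call depends on the method. At an adjusted p under 0.05 the test called none of the 9 members, where 0.124% of all genes were called as higher, 0.0964% as lower and 0.22% in either direction, and 1 member, BCL9, had an unadjusted p under 0.05, as did 1101 genes of all. DESeq2 called 1 member, BCL9, and 81 genes of all.

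Among the members measured in HT29, NKD1 had the largest ratio and the fewest counts. Its 16 and 30 counts gave a log2 ratio of 0.70 whose counting interval, -0.15 to 1.74, includes 0. In HCT116, with 466 and 484 counts, its log2 ratio was 0.18 (-0.0036 to 0.37). ZNRF3 had a log2 ratio of 0.12 (0.05 to 0.19) in HT29 and 0.02 (-0.10 to 0.15) in HCT116. TCF7 had 0.03 (-0.06 to 0.11) in HT29 and 0.15 (0.02 to 0.28) in HCT116. AXIN2, the general readout of the pathway, had 0.06 (-0.03 to 0.16) in HT29 and 0.08 (-0.03 to 0.19) in HCT116. RNF43 (-0.05 and 0.13) and EPHB2 (0.03 and 0.10) had intervals that include 0 in both lines.

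LGR5 and ASCL2 could be followed with LPS only in HT29, since both had under 1 CPM in HCT116. ASCL2 went from 279 to 243 counts, a log2 ratio of -0.34 (-0.59 to -0.08), and LGR5 from 187 to 174, a log2 ratio of -0.24 (-0.55 to 0.06). Among all genes measured in HT29, 16.1% were at least as far from 0 as ASCL2 and 25.3% as LGR5. In the test over both lines neither passed (adjusted p = 0.91 for ASCL2 and 0.94 for LGR5 from edgeR). A difference in the response to LPS between the lines could not be tested, since it leaves no residual degrees of freedom.

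**Figure D4:**
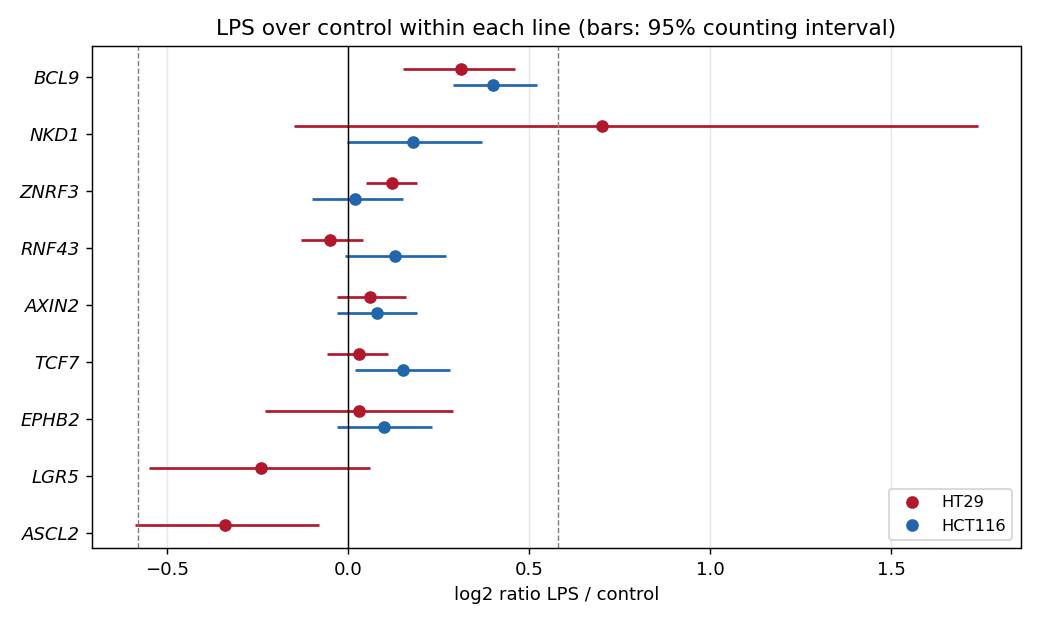
Log2 ratio of the LPS library to the control library within HT29 (red) and HCT116 (blue) for the members measured, with 95% counting intervals as bars and dashed lines at 0.58 in each direction. LGR5 and ASCL2 have no HCT116 point because they had under 1 CPM there. Both BCL9 intervals lie above 0, and the NKD1 point of HT29 lies beyond the dashed line with an interval that includes 0.

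The rest of the pathway also differed between the lines in both directions. Of 144 further genes of Wnt signalling and the intestinal stem state, 108 had enough counts to test, and 47 were higher in HT29 and 52 in HCT116, 91.7% of them beside 76.6% of all genes. Their median log2 fold change was -0.12, beside -0.02 over all genes. Of the 108, 6 passed the filter on low counts only through HT29 and 17 only through HCT116, so these had to differ to be tested. Among the 85 measured in both lines, 41 were higher in HT29 and 35 in HCT116. Of all 12085 genes measured in both lines, 4816 were higher in HT29 and 4076 in HCT116. The median was 0.07 for the 85 and 0.06 for the 12085. These counts are the background for the lists that follow, with 38.0% and 38.6% of all genes tested called as higher in HT29 and in HCT116.

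Of the 19 Wnt ligands 9 could be tested, and 6 of these, all called as higher in HCT116, passed the filter only through HCT116. The 3 measured in both lines were higher in HT29, so the split of the list is largely set by the filter. WNT16 had 5 and 3 counts in the HT29 control and LPS libraries and 3242 and 2834 in those of HCT116. WNT3A, a classical activator of β-catenin, had 0 counts in HT29 against 278 and 232 in HCT116, at least 149-fold higher against a limit of 3 counts over both HT29 libraries. WNT6 had 0 counts in HT29 against 173 and 101 in HCT116, at least 79.9-fold higher on the same basis, and WNT9A had 1 and 2 counts in HT29 against 428 and 283 in HCT116. For ligand export, WLS was higher in HT29 (log2 fold change 0.88) and PORCN, which lipidates Wnt proteins, was lower (-1.74). R-spondin transcripts were scarce in both lines. The 2 at 0 in every library were RSPO2 and RSPO3, and RSPO4 had 2 and 0 counts in HT29 against 42 and 52 in HCT116.

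All 3 R-spondin receptors were higher in HT29, and of these LGR5 and LGR6 passed the filter only through HT29. LGR4, a relative of LGR5 that is widely expressed, had 3568 and 4105 counts in HT29 against 444 and 359 in HCT116 (log2 fold change 3.45 with standard error 0.08, edgeR adjusted p = 2.1e-18), and LGR6 had 97 and 113 counts in HT29 against 12 and 24 in HCT116. Per base of exon LGR4 stood at 15.7 times LGR5 (13.5 to 18.3) in the HT29 control. Of the 14 Frizzled, LRP and related receptors tested, 5 were higher in HT29 and 9 in HCT116, of which 2 passed the filter only through HCT116. ROR1 and ROR2, receptors of non-canonical Wnt signals, went opposite ways. ROR1 had 1204 and 1525 counts in HT29 against 86 and 53 in HCT116, while ROR2 had 0 in HT29 against 852 and 771 in HCT116, at least 473-fold higher. FZD2 had 39 and 54 counts in HT29 against 861 and 866 in HCT116, and FZD9 had 2 and 0 in HT29 against 42 and 51 in HCT116. The 2 receptors that passed the filter only through HCT116 are ROR2 and FZD9, so these had to differ to be tested.

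Among 15 secreted antagonists and KREMEN co-receptors, 1 of the 5 tested was higher in HT29 and 4 in HCT116, and 3 of the 5, all higher in HCT116, were measured in both lines. SOSTDC1, an inhibitor of Wnt and BMP signals, had 573 and 517 counts in HT29 against 8 and 6 in HCT116. NOTUM, a feedback enzyme that removes the lipid of Wnt proteins, had 18 and 19 counts in HT29 against 410 and 364 in HCT116. SOSTDC1 passed the filter on low counts only through HT29 and NOTUM only through HCT116, so each had to differ to be tested. KREMEN2 had 56 and 32 counts in HT29 against 1046 and 849 in HCT116, and KREMEN1 was lower in HT29 as well (log2 fold change -1.58). The 4 at 0 in all libraries were WIF1, SFRP1, SFRP2 and SOST.

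In the destruction complex and its regulators, 6 of 21 genes tested were higher in HT29 and 12 in HCT116, members included, and 1 passed the filter only through HCT116. TNKS, which marks AXIN for degradation, had 279 and 256 counts in HT29 against 1515 and 1288 in HCT116 (log2 fold change -2.19). APC2 had 93 and 156 counts in HT29 against 522 and 523 in HCT116 (log2 fold change -1.91). Of the 17 nuclear effectors tested, 6 were higher in HT29 and 7 in HCT116, and among the 14 measured in both lines it was 5 and 5. The TLE co-repressors measured in both lines differed in both directions. TLE1 was higher in HT29 (log2 fold change 1.67), and TLE3 (-0.55) and TLE5 (-0.28) were lower. TLE2 had 0 and 6 counts in HT29 against 1403 and 1514 in HCT116. TLE4 had 222 and 259 counts in HT29 against 3 and 19 in HCT116. TLE2 passed the filter on low counts only through HCT116 and TLE4 only through HT29, so these had to differ to be tested.

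Other Wnt targets were higher in HT29 in 16 of 27 genes tested and in HCT116 in 9, beside 38.0% and 38.6% of all genes. Among the 20 measured in both lines it was 13 and 5, beside 4816 and 4076 of all 12085 such genes. MMP7, a metalloprotease of intestinal tumours, had 1677 and 1845 counts in HT29 against 3 and 4 in HCT116. PROX1 had 69 and 89 counts in HT29 and 0 in HCT116, at least 60.2-fold higher. ADRA2C had 6 and 0 counts in HT29 against 1150 and 1120 in HCT116. TNFRSF19, also a crypt stem cell marker, had 0 counts in HT29 against 38 and 51 in HCT116, at least 25.9-fold lower in HT29. The 20 intestinal stem genes tested were higher in HT29 in 12 and in HCT116 in 8, and among the 15 measured in both lines in 9 and 6. Without the 5 members among them, 7 were higher in HT29 and 8 in HCT116. MSI1, an RNA-binding protein of stem cells, had 1 and 0 counts in HT29 against 690 and 666 in HCT116, and PTPRO had 150 and 115 in HT29 and 1 in each HCT116 library. The 2 at 0 in all 4 libraries were AQP4 and OLFM4, a marker of human crypt stem cells. MMP7, PROX1 and PTPRO passed the filter on low counts only through HT29, and ADRA2C, TNFRSF19 and MSI1 only through HCT116. These genes had to differ between the lines to be tested. The stem genes measured in both lines, 9 higher in HT29 and 6 in HCT116, did not all share the direction of LGR5 and ASCL2.

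**Figure D5:**
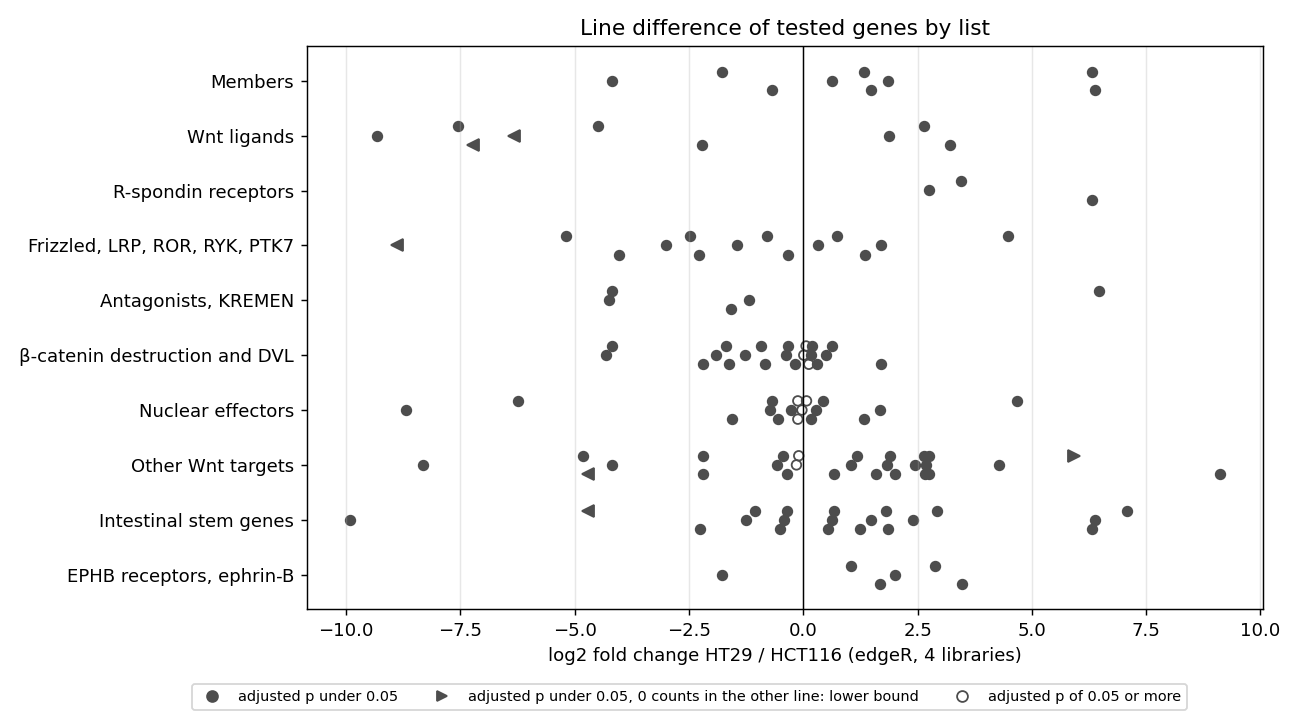
Log2 fold change of HT29 over HCT116 from edgeR for each tested gene of the members and of 9 further lists, 1 point per gene, with genes of several lists shown in each. Filled points passed an adjusted p of 0.05, open points did not, and triangles are lower bounds for genes at 0 in a line. Every list except the R-spondin receptors holds points on both sides of 0.

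With LPS, no further gene was called in the test over both lines by edgeR. In HT29, 1 of 92 measured lay above 0.58 and 2 below -0.58, and in HCT116, 1 of 104 lay above and 1 below. None lay beyond 0.58 in the same direction in both lines. The intervals of 13 of the 85 genes measured in both lines lay above 0 in both, beside 4.41% of all genes. Those of 5 lay below 0 in both, beside 6.34%. Intervals are narrower for genes with more counts, and these shares were not matched for counts, length or GC. Whether the pathway genes exceed genes of like counts was not tested. The 13 included BCL9L, with log2 ratios of 0.33 (0.28 to 0.39) in HT29 and 0.24 (0.19 to 0.29) in HCT116, and TCF7L2, with 0.24 (0.13 to 0.35) and 0.22 (0.16 to 0.28). Neither passed edgeR's test (adjusted p = 0.091 for BCL9L and 0.28 for TCF7L2), and both passed DESeq2 (adjusted p = 0.00026 and 0.023). CTNNB1 was among the 5 below 0, with log2 ratios of -0.13 (-0.19 to -0.07) in HT29 and -0.15 (-0.19 to -0.11) in HCT116.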

How the data were processed

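RNA of 4 libraries was sequenced by the authors, and their HISAT2 2.1.0 alignments to hg38 were counted over GENCODE genes with featureCounts 2.0.1 and deposited as raw counts. Read trimming is listed by the submitters' processing notes as cutadapt 1.9 and Trimmomatic 0.39. How strand and multiply aligned reads were handled, and the annotation release, were not given in the sources used here. Gene lengths came with the deposited counts and equalled those of GENCODE 44 for all 10 members. Counts were normalized by TMM and tested in R 4.3.3 with edgeR 4.0.16, over the whole table with Benjamini-Hochberg adjustment. Standard errors are the log2 fold change divided by the root of the F statistic. DESeq2 1.42.0, its size factors, library size, other prior counts and filters, TMM within a line, thinned counts and fits without a block were alternatives. Transcripts were aligned with minimap2 2.31 to find copies. Scripts were tested on simulated data. All members are named, with up to 4 genes of each further list by size of the line difference. AXIN1, BCL9L, TCF7L2, TLE3, TLE5, CTNNB1, further EPHB and ephrin genes, marker genes and the genes named as at 0 in every library were chosen after their values were seen. The members and lists were chosen with earlier results of these data known.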

Additional observations from a re-analysis of the deposited data

How the results depend on the processing

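The line difference of every member tested kept its direction and its call under all alternatives run, with LGR5 left out by a minimum of 5 CPM. With library size in place of TMM, the log2 ratios between the control libraries became 0.46 for AXIN2, 1.40 for RNF43, 1.63 for ZNRF3, 1.22 for TCF7 and -0.80 for BCL9. The 1 member above 0.58 in HT29, NKD1, became 0 at a size threshold of 1 and 0 with a minimum of 5 CPM, which left NKD1 out. The 0 members called with LPS over both lines became 1, BCL9, with a minimum of 5 CPM in edgeR and 1 by DESeq2. A correction for trends across genes in length and GC, added once the data had been seen, moved the BCL9 ratio to 0.28 in HT29 and 0.37 in HCT116 and the members' median to -0.04 and 0.09. Over all genes, edgeR's 32 calls with LPS became 14 with DESeq2 size factors, 103 with no filter, 136 with a minimum of 5 CPM and 0 without the line block, where 7 genes had an unadjusted p under 0.05, and DESeq2 called 81. Genes above and below 0.58 with LPS numbered 460 and 351 in HT29 and 512 and 338 in HCT116. They became 60 and 73, and 73 and 42, at 5 CPM, 3716 and 3843, and 5099 and 3726, with no filter, and 134 and 82, and 121 and 89, at a threshold of 1. Between the lines, genes above and below 1 in the control libraries went from 2445 and 3400 to 4895 and 7035 with no filter, and those below to 2104 at 5 CPM. LGR5, ASCL2 and LEF1 in HCT116, and NKD1 in HT29, rest on few counts, and no condition was repeated.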
